A study of Mus musculus with 8 samples.

Results

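The 10 genes described here encode proteins that coat lipid droplets, shape them or control the release of fatty acids from them: Plin2, Plin3, Plin4, Plin5, Cideb, Cidec, G0s2, Pnpla2, Hsd17b11 and Hsd17b13. They were taken by symbol from a deposited table of 22013 genes, where each of the 10 symbols matched 1 row. Liver RNA of mice was sequenced after poly(A) selection in 8 libraries, 4 titled as control (crtl) and 4 titled Rem, for resmetirom. The series describes a diet model of steatohepatitis (MASH), in which mice were fed fructose, palmitate and cholesterol (the FPC diet) for 12 weeks. Resmetirom, which activates thyroid hormone receptor beta, was given intraperitoneally at 5 mg/kg/day for 8 weeks after 4 weeks on that diet, and the vehicle held 0.5% CMC-Na and 0.4% Tween-80. The labels give no diet, vehicle, strain, sex or age for the single libraries, so a difference in diet or vehicle between the groups cannot be told apart from the drug. They also do not state that each library is a separate animal, so p-values measure only the spread between these libraries, which may be technical.

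A lipid droplet is a core of triglyceride and cholesteryl ester under a single layer of phospholipid, and in hepatocytes it is both a store and a source of fatty acids. Perilipins cover its surface and limit the access of lipases. CIDE proteins sit where droplets touch and move lipid from a smaller to a larger one, and in the liver also take part in loading very low density lipoprotein. Adipose triglyceride lipase, encoded by Pnpla2, takes the first fatty acid off a triglyceride, and the small protein encoded by G0s2 inhibits it. Hsd17b11 and Hsd17b13 encode short-chain dehydrogenases that are anchored to the droplet surface, the second of them mainly in liver.

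Of the 10 genes, 3 fell and 0 rose in the resmetirom libraries, which were Plin4, Hsd17b11 and Hsd17b13. A gene is called here when its Benjamini-Hochberg adjusted p is under 0.05 in the quasi-likelihood test of edgeR over 12207 genes. Such calls made up 4.59% of genes in either direction, 1.99% lower and 2.6% higher. Plin4 changed most, to 0.317 times its control level (95% interval 0.217 to 0.463), while Hsd17b11 was at 0.621 times (0.517 to 0.746) and Hsd17b13 at 0.695 times (0.578 to 0.836). The other 7 genes were not called. DESeq2 also called 3 lower and 0 higher, beside 3.37% and 4.36% of all genes, and limma-voom 3 lower and 0 higher, beside 1.86% and 2.7%. At an unadjusted p under 0.05 edgeR had 4 lower, with Plin3 added, and 0 higher, beside 8.36% and 9.48% of all genes. The median log2 fold change of the 10 genes was -0.185, against -0.0043 for all genes tested. In 3 of the 10 genes, the 3 called ones, all 4 resmetirom libraries lay below all 4 control libraries, and in 0 of the 10 they lay above. Among all genes tested such separation was seen downward in 5.5% and upward in 6.32%. In RNA from whole tissue, fewer cells of a type and less RNA per cell cannot be told apart.

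The sequences just upstream of the 3 genes that fell, and of Plin2, the most abundant perilipin gene here, which was not called, are shown so that their start regions can be compared. They were copied from RefSeq on GRCm38.p6, whose table held at least 1 window for all 10 genes, 12 windows in all. Each window runs 5′ to 3′ on the strand of its gene, from 250 bases before the annotated start to 50 bases after it. Capitals mark matches, on either strand, to 5 motifs. These are AGGTCA, the half-site of many nuclear receptors with the thyroid hormone receptor among them, then CACGTG, which is known as the E-box, then CCAAT, named for its letters, then GGGCGG, known as the GC box, and last TATAAA, the usual core of the TATA box. Each of the 4 windows lies on the minus strand, at chr17:56109733-56110032 for Plin4, chr5:104021747-104022046 for Hsd17b11, chr5:103977339-103977638 for Hsd17b13 and chr4:86670010-86670309 for Plin2.
Plin4: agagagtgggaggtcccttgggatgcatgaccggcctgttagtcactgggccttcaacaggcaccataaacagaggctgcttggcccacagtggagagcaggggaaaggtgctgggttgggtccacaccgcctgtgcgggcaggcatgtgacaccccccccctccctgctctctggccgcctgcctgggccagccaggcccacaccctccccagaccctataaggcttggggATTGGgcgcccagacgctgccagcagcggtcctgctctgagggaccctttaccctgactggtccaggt
Hsd17b11: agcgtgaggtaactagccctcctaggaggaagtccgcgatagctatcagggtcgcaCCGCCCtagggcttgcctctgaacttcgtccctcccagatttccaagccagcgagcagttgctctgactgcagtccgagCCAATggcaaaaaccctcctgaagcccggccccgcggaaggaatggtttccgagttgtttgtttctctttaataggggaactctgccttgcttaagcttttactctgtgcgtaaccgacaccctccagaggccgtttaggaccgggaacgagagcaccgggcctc
Hsd17b13: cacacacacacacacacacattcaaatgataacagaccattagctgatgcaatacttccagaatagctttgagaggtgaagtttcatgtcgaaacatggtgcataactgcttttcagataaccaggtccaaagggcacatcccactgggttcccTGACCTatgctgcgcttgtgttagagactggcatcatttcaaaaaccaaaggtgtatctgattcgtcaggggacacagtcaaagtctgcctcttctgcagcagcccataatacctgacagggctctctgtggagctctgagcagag
Plin2: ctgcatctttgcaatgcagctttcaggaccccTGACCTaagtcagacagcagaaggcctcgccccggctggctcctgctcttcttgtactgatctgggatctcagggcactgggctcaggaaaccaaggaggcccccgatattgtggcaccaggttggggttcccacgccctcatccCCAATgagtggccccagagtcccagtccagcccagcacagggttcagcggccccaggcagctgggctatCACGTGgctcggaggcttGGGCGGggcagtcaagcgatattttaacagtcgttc

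The Plin4 window held 1 match, CCAAT on the opposite strand at bases 233 to 237 of the window. In the Hsd17b11 window there were 2, CCAAT at bases 136 to 140 and GGGCGG on the opposite strand at bases 57 to 62. Hsd17b13 had 1 match, AGGTCA on the opposite strand at bases 155 to 160. Plin2 had 4 matches, among them AGGTCA on the opposite strand at bases 33 to 38 and CACGTG at bases 247 to 252. Of 32851 windows of 300 bases in the same table, 16.3% held AGGTCA, 7.15% CACGTG, 37.4% CCAAT, 35.7% GGGCGG and 13.6% TATAAA. None of the 12 windows of the 10 genes held AGGTCA repeated head to tail with 1 base or with 4 bases between, and 0.0396% and 0.0152% of all windows did. The adjacent paralogs Hsd17b11 and Hsd17b13 had no motif in common in these windows. A match is a string of letters and no evidence of binding.

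Counts summed to 16787561 to 19887539 per library, and the 10 genes took 0.177% to 0.313% of them. The lowest count of any of the 10 genes in a library was 96, for Plin4, and all 10 passed the filter on low counts. Levels are CPM, which is counts relative to the library total after correction by TMM factors, where libraries are compared, and TPM, which corrects for length, where genes are compared. Those factors were 1.08 to 1.161 for the control group, 1.056 for resmetirom replicate 1 and 0.8042 to 0.8794 for the other 3 resmetirom libraries. Scaled by library size alone, all genes had a median of -0.3118 in place of -0.0043, and 92.9% of called genes were lower in place of 43.4%. In log2(TPM + 1) that median was -0.4075. Changes below are relative to the TMM scaling. For the 10 genes it is said where another scaling turns one, and for other genes the sign under other scalings is given only in part. All 12 hepatocyte marker genes fixed for the check of the tissue were tested, and their summed level was 92463 to 103498 CPM in the control and 113857 to 122151 CPM in the resmetirom libraries, without overlap. Alb was the largest part of that sum, at 58272 ± 3636 and 73186 ± 2682 CPM (SD, n = 4 each), and was not called (edgeR adjusted p = 0.0811). Serpina1c at -0.61, Trf at -0.15 and Ttr at -0.09 in log2 lay below 0, also not called. Alb, Serpina1c, Trf and Ttr were named after their values were seen. Of the 12, 2 rose (Cps1 and Ahsg) and 0 fell, and their median in log2 was 0.301, and DESeq2 called 4 higher and 1 lower. Scaled by library size alone and on both TPM scales 0 were called higher and 3 to 4 lower, the median was -0.22 to -0.01, and Cps1 (adjusted p of 0.0836 to 0.318) and Ahsg (0.1 to 0.623) were not called.

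Per length, Plin2, Hsd17b13 and Hsd17b11 were the most abundant of the 10 in the control libraries, at 763 ± 186, 752 ± 110.3 and 682 ± 146 TPM (SD, n = 4). G0s2 at 285 ± 30.1 TPM, Cideb at 252 ± 26.4 TPM and Cidec at 162 ± 62.1 TPM followed. Pnpla2 was at 89.7 ± 15.4 TPM and Plin5 at 71.4 ± 12.7 TPM, while Plin3 at 20.9 ± 2.82 TPM and Plin4 at 7.81 ± 1.72 TPM were the lowest. The ranges of neighbours in this order overlapped except between Hsd17b11 and G0s2, Plin5 and Plin3, and Plin3 and Plin4. In the resmetirom libraries the order of the 10 means was the same, from Plin2 at 611 ± 164 TPM, Hsd17b13 at 371 ± 80.2 TPM and Hsd17b11 at 301 ± 60.2 TPM to Plin3 at 11.0 ± 2.6 TPM and Plin4 at 1.69 ± 0.436 TPM. There the range of Hsd17b11 reached that of G0s2, which was at 254 ± 58.1 TPM. The gap between G0s2 and the dehydrogenases in the control libraries was thus not seen in the resmetirom libraries.

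**Figure D1:**
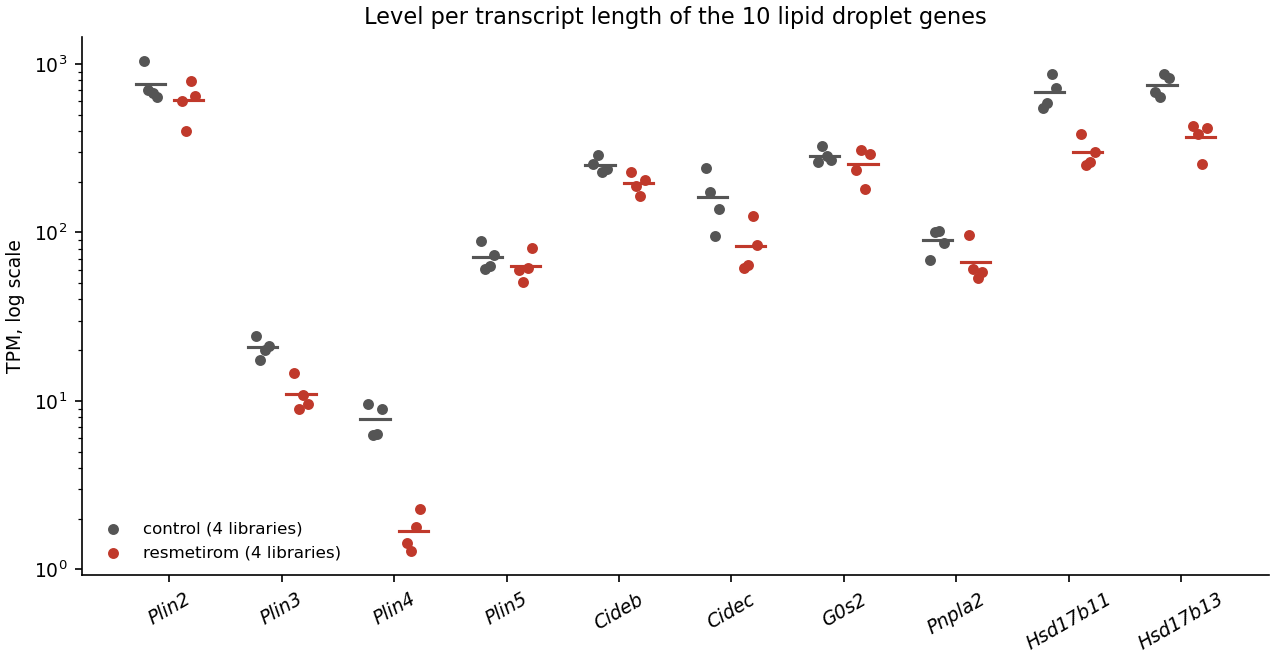
Level of each of the 10 genes in every library, as TPM on a log axis, with control libraries in grey and resmetirom libraries in red, replicates 1 to 4 from left to right within a group, and the mean as a bar. Plin4 is the lowest gene in both groups, at 6.28 to 9.61 TPM in the control and 1.29 to 2.27 TPM in the resmetirom libraries. On this scale Plin3, Hsd17b11 and Hsd17b13 also do not overlap between groups, while in CPM Plin3 does. The share of all genes that separate in TPM was not computed. In log2(TPM + 1) the median of all genes was -0.4075, and 38.0% of them were called lower.

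Plin4 encodes a coat protein with a long run of repeats that fold into an amphipathic helix on the droplet, and it is best known from adipose tissue and muscle. The gene (ENSMUSG00000002831) spans chromosome 17, 56100591 to 56109803, on the minus strand of GRCm38. Its counts were 717, 448, 463 and 585 in control replicates 1 to 4 and 96, 100, 153 and 167 in resmetirom replicates 1 to 4. In CPM these were 33.4, 21.7, 21.0 and 28.9 in the control libraries and 5.41, 6.49, 10.2 and 11.3 in the resmetirom libraries. The highest resmetirom library lay well under the lowest control library. The log2 fold change was -1.66 (SE 0.25, edgeR adjusted p = 0.00317), and it was called under all 20 alternatives, at -2.15 to -1.49 with adjusted p from 3.86e-09 to 0.017. In the authors' deposited table Plin4 has a log2 ratio of mean TPM of -2.21 with an adjusted p of 9.88e-18.

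Plin4 is also expressed by adipocytes, so their markers are given beside it. Of 12 adipocyte markers fixed for this comparison, 4 (Adipoq, Lep, Retn and Slc36a2) had 0 counts in all 8 libraries, and Plin1, the perilipin of adipocytes, had 3 counts over the control and 0 over the resmetirom libraries. The summed level of the 12 was 47.3 to 59.6 CPM in the control and 31.4 to 41.1 CPM in the resmetirom libraries, without overlap. Most of that sum was Fabp4, Pparg and Lipe, with means of 17.2, 16.6 and 16.3 CPM in the control libraries. In the resmetirom libraries these means were 8.63, 15.5 and 11.0 CPM. Of the 4 that passed the filter, 1 fell, Fabp4, from 17.2 ± 1.66 to 8.63 ± 1.83 CPM (SD, n = 4 each; log2 fold change -1.0, SE 0.17, edgeR adjusted p = 0.00413). The other 3 were Adrb3 at -2.3 (adjusted p = 0.0793), Lipe at -0.56 (adjusted p = 0.0782) and Pparg at -0.10 (adjusted p = 0.822), none of them called, and the median of the 4 was -0.779. DESeq2 called 3 of the 4 lower and limma-voom 2, and 3 to 4 were called lower with library sizes only and on both TPM scales. Adrb3, Lipe and Pparg were named here after their values were seen. Cfd, below the filter, had 65 counts over the control and 0 over the resmetirom libraries. Of the 12 markers, Adipoq, Lep, Retn and Slc36a2 were thus at 0 in both groups, while the summed level was lower in the resmetirom libraries. The part of the adipocyte markers in the Plin4 result was not tested. Of 10 striated muscle markers, 6 had 0 counts in every library and the sum of the list was at most 0.61 CPM.

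On chromosome 17, Plin5 lies 1797 bases from Plin4 on the same strand, and Hdgfl2 overlaps the other end of Plin4 by 17 exonic bases on the opposite strand, 0.3% of the exonic bases of Plin4. Neither neighbour was called, and Hdgfl2 had a log2 fold change of 0.32 (SE 0.16, edgeR adjusted p = 0.309). None of the sources used here says how the counting treated strand.

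Plin5 encodes the perilipin of oxidative tissues, which ties droplets to mitochondria and binds the lipase encoded by Pnpla2 and its cofactor. The gene (ENSMUSG00000011305) lies at chromosome 17, 56111601 to 56117596. Plin5 was at 99.4, 66.4, 66.1 and 73.7 CPM in control replicates 1 to 4 and 71.4, 80.4, 109 and 127 CPM in resmetirom replicates 1 to 4. The groups overlapped, and the change in log2 was 0.34 (95% interval -0.10 to 0.78, edgeR adjusted p = 0.426). In log2(TPM + 1) the sign turned, at -0.18 with an adjusted p of 0.377.

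Plin2, also called adipophilin, coats droplets in nearly every cell and is the main perilipin of hepatocytes. It lies at chromosome 4, 86648386 to 86670060 (ENSMUSG00000028494). Its level was 1103, 727, 663 and 605 CPM in control replicates 1 to 4 and 676, 601, 1352 and 952 CPM in resmetirom replicates 1 to 4. Control replicate 1 and resmetirom replicate 3 stood above the other libraries of their groups, and the lowest library was at 605 CPM in the control and 601 CPM in the resmetirom group. The log2 fold change of Plin2 was 0.21 (95% interval -0.47 to 0.89, edgeR adjusted p = 0.796), so that anything between 0.721 and 1.85 times the control level lies inside the interval. The sign of Plin2 turned without resmetirom replicate 3, at -0.06 with an adjusted p of 0.941. It also turned when scaled by library size alone, at -0.12 with an adjusted p of 0.718, and in log2(TPM + 1), at -0.33 with an adjusted p of 0.205.

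Plin3 encodes the cytosolic perilipin that moves onto newly formed droplets (ENSMUSG00000024197, chromosome 17, 56277476 to 56292873). It was at 49.4, 35.5, 38.4 and 39.6 CPM in control replicates 1 to 4 and 32.1, 26.0, 35.6 and 27.3 CPM in resmetirom replicates 1 to 4. Of the resmetirom libraries, replicate 3 reached just above the lowest control library, and the other 3 lay under all of them. Plin3 had a log2 fold change of -0.43 (95% interval -0.72 to -0.14, edgeR adjusted p = 0.102), which is not called. Other scalings called it lower. Scaled by library size alone it was at -0.73 with an adjusted p of 0.00726, where 16.1% of all genes were called lower and 1.24% higher. In log2(TPM + 1) it was at -0.88 with an adjusted p of 0.00557, where 38.0% of all genes were called lower and 1.04% higher. In log2(TPM + 0.1) it was at -0.93 with an adjusted p of 0.00553, where these shares were 37.6% and 1.05%. In the authors' deposited table Plin3 has a log2 ratio of mean TPM of -0.92 and an adjusted p of 2.34e-05.

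**Figure D2:**
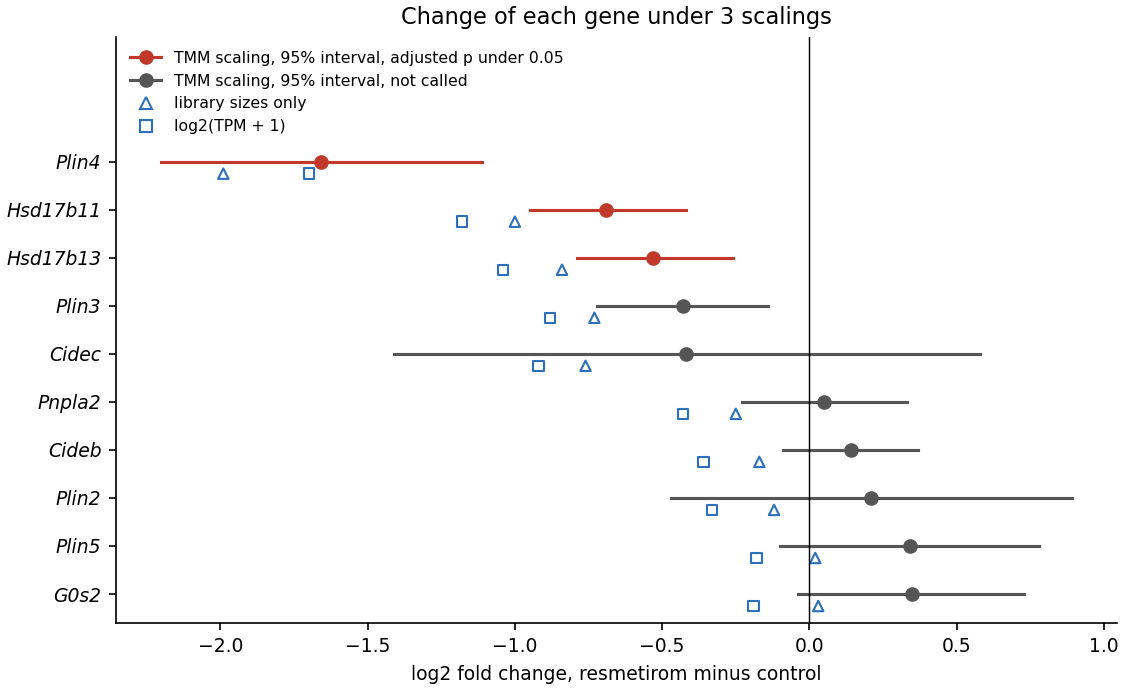
Log2 fold change of each gene, resmetirom minus control, with filled circles and bars for the estimate and 95% interval with TMM scaling, triangles for library sizes only and squares for the log2(TPM + 1) scale. Plin4, Hsd17b11 and Hsd17b13, in red, were called, and the blue markers lie to the left of the circle for each of the 10 genes.

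The makeup of the perilipin coat genes can be read within a library, where scaling between libraries plays no part. Plin2 made up 86.0% to 89.4% of the summed TPM of the 4 perilipin genes in the control libraries and 86.8% to 91.5% in the resmetirom libraries. Plin5 made up 7.63% to 9.89% in the control and 7.02% to 11.0% in the resmetirom libraries. For Plin4 the share was 0.827%, 0.801%, 0.833% and 1.21% in control replicates 1 to 4, and 0.21%, 0.281%, 0.205% and 0.308% in resmetirom replicates 1 to 4. The share of Plin4 did not overlap between groups, while those of Plin2 and Plin5 did. Plin3, at 2.1% to 2.89% and 1.25% to 2.16%, overlapped through resmetirom replicate 1.

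The ratio of Plin4 to Plin2 in TPM was 0.00925, 0.00898, 0.00944 and 0.0141 in control replicates 1 to 4 and 0.00236, 0.00324, 0.00224 and 0.00353 in resmetirom replicates 1 to 4. On counts it lay below every control library in all 4 resmetirom libraries, with a log2 difference of -1.86 and a 2-sided exact permutation p of 0.0286. That is the smallest value 4 against 4 libraries can give, and it became 0.143 after adjustment over the 5 ratios compared, so this ratio is not called. The ratio of Plin5 to Plin2 was 0.0854 to 0.115 in the control and 0.0767 to 0.127 in the resmetirom libraries, a log2 difference of 0.15 (exact permutation p = 0.486). The pairs were chosen by the roles of the genes, with earlier results for some of them known.

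**Figure D3:**
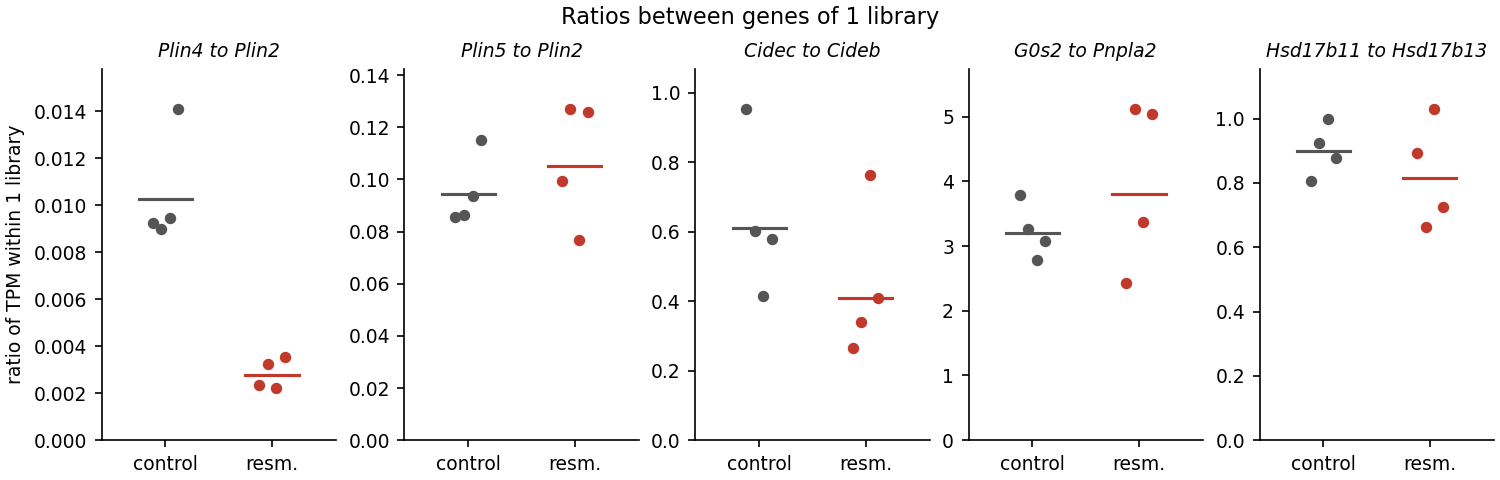
Ratio of the TPM of 1 gene to that of another within each library, on linear axes that start at 0, with 4 control libraries in grey and 4 resmetirom libraries (resm.) in red and the geometric mean as a bar. The ratio of Plin4 to Plin2 is 0.00898 to 0.0141 in the control and 0.00224 to 0.00353 in the resmetirom libraries, and the groups overlap in the other 4 panels.

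Hsd17b11 fell in the resmetirom libraries. The gene (ENSMUSG00000029311, chromosome 5, 103989762 to 104021919, minus strand) encodes a dehydrogenase of steroid and retinoid substrates that gathers on droplets when a cell is loaded with fatty acid. Its level was 565, 594, 832 and 670.1 CPM in control replicates 1 to 4 and 420, 368, 432 and 432 CPM in resmetirom replicates 1 to 4. The 4 resmetirom libraries lay close together, the highest at 1.17 times the lowest against 1.47 times in the control libraries, and all were below the lowest control library. Hsd17b11 had a log2 fold change of -0.69 (SE 0.12, edgeR adjusted p = 0.00619). It was called under all 20 alternatives, at -1.18 to -0.56, with an adjusted p of at most 0.0242. The authors' deposited table gives a log2 ratio of mean TPM of -1.18 with an adjusted p of 9.8e-11 for Hsd17b11. In log2(TPM + 1) Hsd17b11 was at -1.18 here, where the median of all genes was -0.4075.

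Hsd17b13, the paralog next to it, fell as well, with a call that rested on single libraries. It spans chromosome 5, 103955440 to 103977410 on the same strand (ENSMUSG00000034528), and 12351 bases lie between the 2 genes. Its level was 504, 461, 595 and 548 CPM in control replicates 1 to 4 and 338, 399, 300.2 and 428 CPM in resmetirom replicates 1 to 4. No library of 1 group reached the range of the other. Hsd17b13 had a log2 fold change of -0.53 (SE 0.12, edgeR adjusted p = 0.0297). Without control replicate 3 or 4, or without resmetirom replicate 1 or 3, it was not called, at -0.46 (adjusted p = 0.0898), -0.51 (adjusted p = 0.0966), -0.49 (adjusted p = 0.073) and -0.44 (adjusted p = 0.066). The authors' deposited table gives a log2 ratio of mean TPM of -1.02 with an adjusted p of 4.21e-09 for Hsd17b13. In log2(TPM + 1) Hsd17b13 was at -1.04 here, where the median of all genes was -0.4075. The neighbours outside the pair were not called, with Nudt9 at -0.05 (SE 0.11, adjusted p = 0.879) beyond Hsd17b11 and Klhl8 at -0.16 (SE 0.32, adjusted p = 0.864) beyond Hsd17b13.

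Within a library the 2 dehydrogenase genes were near equal per length, with a ratio of Hsd17b11 to Hsd17b13 of 0.806, 0.925, 1.0 and 0.878 in control replicates 1 to 4 and 0.893, 0.662, 1.03 and 0.725 in resmetirom replicates 1 to 4. The groups overlapped, with a log2 difference of -0.14 on counts (2-sided exact permutation p = 0.429, 0.486 after adjustment over 5 ratios). Reads shared between these paralogs would move counts from 1 to the other, and none of the sources used here says how the counting treated such reads. Of the other 10 genes of the Hsd17b family, 7 were tested, of which 1 rose and 1 fell, and the median of the 7 was 0.101, or -0.4 to -0.2 with library sizes only and on both TPM scales. Hsd17b7, which encodes an enzyme of cholesterol synthesis, rose from 27.8 ± 4.6 to 128 ± 47.2 CPM (SD, n = 4 each; log2 fold change 2.21, SE 0.29, edgeR adjusted p = 0.004). Hsd17b6, an enzyme of androgen metabolism, fell from 313 ± 166 to 44.9 ± 11.0 CPM (log2 fold change -2.80, SE 0.41, edgeR adjusted p = 0.011). Hsd17b4, of peroxisomal fatty acid oxidation, was at 0.30 (SE 0.09, adjusted p = 0.0732) and was named after its values were seen.

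**Figure D4:**
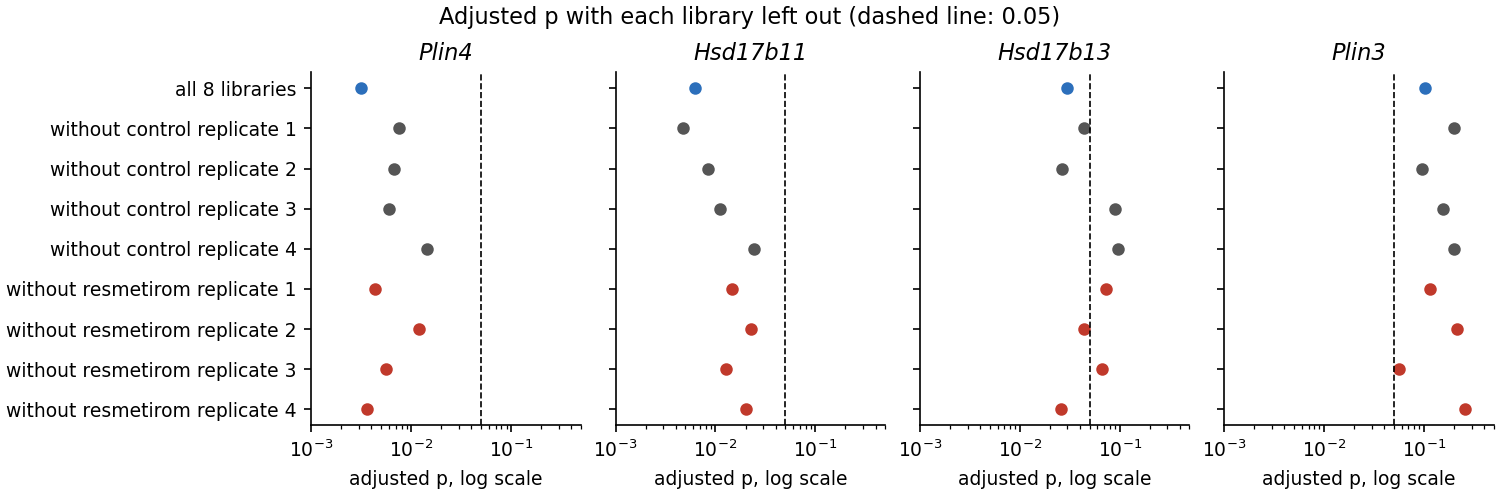
Adjusted p of Plin4, Hsd17b11, Hsd17b13 and Plin3 with all 8 libraries (blue) and with each control (grey) or resmetirom (red) library left out, on a log axis, with the threshold of 0.05 as a dashed line. Plin4 and Hsd17b11 stay left of the line, at 0.0145 or less and 0.0242 or less, Hsd17b13 crosses it in 4 of 8 cases, and Plin3 stays right of it, at 0.0565 or more.

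Cidec, known as FSP27, joins droplets into larger ones and is induced in fatty liver. The gene is at chromosome 6, 113424634 to 113435760 (ENSMUSG00000030278), and RefSeq lists 2 starts for it. It was the most variable of the 10 genes, at 162, 113, 59.8 and 84.3 CPM in control replicates 1 to 4 and 44.5, 59.3, 129.6 and 81.3 CPM in resmetirom replicates 1 to 4. The highest library was 2.71 times the lowest in the control group and 2.91 times in the resmetirom group. The groups overlapped, and the log2 fold change was -0.42 with a 95% interval of -1.41 to 0.58 (edgeR adjusted p = 0.702). In log2(TPM + 1) Cidec was called at -0.92 with an adjusted p of 0.0232, and in log2(TPM + 0.1) at -0.93 with an adjusted p of 0.0229, where 38.0% and 37.6% of all genes were called lower. Control replicate 1 and resmetirom replicate 3, the libraries highest in Cidec within their groups, were also the highest in Plin2.

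Cideb encodes the CIDE protein of hepatocytes (ENSMUSG00000022219, chromosome 14, 55754050 to 55758458). Its level was 173, 193, 145 and 146 CPM in control replicates 1 to 4 and 166, 183, 179 and 195 CPM in resmetirom replicates 1 to 4, which overlap. The log2 fold change was 0.14 (95% interval -0.09 to 0.37, edgeR adjusted p = 0.571). Scaled by library size alone Cideb was at -0.17 with an adjusted p of 0.291. Nop9, a ribosome biogenesis gene on the opposite strand, shares 1136 of the exonic bases of Cideb, which is 76.3% of them, so reads of both could not be told apart without strand. Nop9 itself was at 0.07 (SE 0.14, edgeR adjusted p = 0.869). The ratio of Cidec to Cideb in TPM was 0.416 to 0.953 in the control and 0.266 to 0.762 in the resmetirom libraries, a log2 difference of -0.58 on counts (exact permutation p = 0.2). Cidea, the third CIDE gene, was below the filter with 45 counts over the control and 21 over the resmetirom libraries.

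Neither the lipase gene nor its inhibitor was called. Pnpla2 (ENSMUSG00000025509, chromosome 7, 141455198 to 141460743, plus strand) was at 81.6, 116, 115 and 84.7 CPM in control replicates 1 to 4 and 115, 101, 95.8 and 99.0 CPM in resmetirom replicates 1 to 4. All 4 resmetirom libraries lay inside the control range, and the log2 fold change of 0.05 had a 95% interval of -0.23 to 0.33 (edgeR adjusted p = 0.907). Its sign turned without control replicate 1 or 4, without resmetirom replicate 1, and when scaled by library size alone, where Pnpla2 was at -0.25 with an adjusted p of 0.269. G0s2 (ENSMUSG00000009633, chromosome 1, 193272161 to 193273217) was at 128, 158, 129.6 and 119 CPM in control replicates 1 to 4 and 122, 215, 143 and 200.3 CPM in resmetirom replicates 1 to 4. Resmetirom replicates 2 and 4 were above all control libraries, and replicates 1 and 3 were inside the control range. The log2 fold change of G0s2 was 0.35 (95% interval -0.04 to 0.73, edgeR adjusted p = 0.351). Scaled by library size alone G0s2 was at 0.03 with an adjusted p of 0.915, and in log2(TPM + 1) at -0.19 with an adjusted p of 0.351.

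The ratio of G0s2 to Pnpla2 in TPM was 3.79, 3.26, 2.78 and 3.08 in control replicates 1 to 4 and 2.43, 5.12, 3.37 and 5.04 in resmetirom replicates 1 to 4. The resmetirom libraries spread on both sides of the control range, with a log2 difference of 0.25 on counts (2-sided exact permutation p = 0.314, adjusted p = 0.486 over 5 ratios).

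Other genes of droplet turnover were read from lists fixed for this comparison. Of 15 tested lipases and cofactors besides Pnpla2 and G0s2, 0 were called with edgeR, and their median log2 fold change was -0.021. At an unadjusted p under 0.05 edgeR had 4 higher and 3 lower, DESeq2 called 2 higher and 1 lower, and limma-voom called 0. With library sizes only and on both TPM scales 8 to 9 of the 15 were called lower and 0 higher. Abhd5, the activator of the lipase encoded by Pnpla2, was at -0.22 (SE 0.11, edgeR adjusted p = 0.351). Mgll lay on the other side of 0, at 0.35 (SE 0.1, edgeR adjusted p = 0.0832), and was not called either. Abhd5 and Mgll were named after their values were seen. Lipe, which encodes hormone-sensitive lipase, had the smallest p of the list, going from 16.3 ± 3.13 to 11.0 ± 1.49 CPM (SD, n = 4 each) with a log2 fold change of -0.56 (SE 0.16, edgeR adjusted p = 0.0782). DESeq2 called Lipe (adjusted p = 0.0358), where 3.37% of all genes were called lower, and so did edgeR on library sizes alone (adjusted p = 0.00724). Pnpla3, a relative of Pnpla2, had 0 counts in all 8 libraries.

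Of 16 tested genes of droplet formation, 1 rose and 1 fell, with a median of -0.004, while with library sizes only and on both TPM scales 1 to 2 rose and 6 to 7 fell. DESeq2 called 4 of the 16 higher and 1 lower, beside 4.36% and 3.37% of all genes, and limma-voom 2 higher and 0 lower. At an unadjusted p under 0.05 edgeR had 4 higher and 1 lower, beside 9.48% and 8.36% of all genes. Tmem41b, which encodes a phospholipid scramblase of the endoplasmic reticulum, rose from 17.1 ± 2.85 to 31.9 ± 3.37 CPM (SD, n = 4 each; log2 fold change 0.90, SE 0.14, edgeR adjusted p = 0.00244). In log2(TPM + 1) Tmem41b was at 0.27 and not called, with an adjusted p of 0.118. Gpat4, an acyltransferase of triglyceride synthesis, fell from 211 ± 36.6 to 150.2 ± 16.1 CPM (log2 fold change -0.49, SE 0.12, edgeR adjusted p = 0.047) and was called in only 1 of the 8 fits that left out a library, the one without control replicate 1 (adjusted p = 0.0319), with 0.056 to 0.125 in the others. Among 24 tested droplet surface proteins besides the 10 genes, 3 rose and 0 fell, with a median of -0.004, while with library sizes only and on both TPM scales 2 rose and 7 to 13 fell. The 3 were Nsdhl, at 3.96 (SE 0.50, edgeR adjusted p = 0.00484), and Hsd17b7, both of which encode enzymes of cholesterol synthesis, and Acsl4, an acyl-CoA synthetase, at 0.78 (SE 0.18, edgeR adjusted p = 0.0322). Acsl4 lost its call when control replicate 1, 2 or 3 was left out, or resmetirom replicate 1 or 4, with an adjusted p of 0.0574 to 0.0944.

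The table's own annotation places 104 genes at the lipid droplet, among them 9 of the 10 genes, all but G0s2. Of the 79 others tested, 4 rose and 2 fell, and the median of the 79 was -0.04 in log2. The rises were Ces1c, Nsdhl, Lss and Acsl4. The falls were Anxa2, at -1.18 (SE 0.19, edgeR adjusted p = 0.00428), and Aqp7, a glycerol channel, at -1.99 (SE 0.49, edgeR adjusted p = 0.0383). Aqp7 had 117 counts over the control and 22 over the resmetirom libraries. This annotation was chosen as a list after the table was seen and was read with TMM scaling only.

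Plin2, Plin4, Plin5, Cidec and G0s2 are known targets of the fatty acid receptors PPARalpha or PPARgamma. The table's own annotation puts Plin2, Plin4 and Plin5 in the PPAR signalling pathway, and of the 64 others tested there 13 rose and 8 fell, with a median of 0.1. It puts Cidec and Pnpla2 in the regulation of lipolysis in adipocytes. There 0 of 38 others tested rose and 4 fell (Fabp4, Gnai1, Adora1 and Aqp7), with a median of -0.08. Both pathways were chosen as lists after the table was seen and were read with TMM scaling only. Of 19 tested PPARalpha target genes that are none of the 10, 3 rose and 0 fell, with a median of -0.017, while with library sizes only and on both TPM scales 0 rose and 8 to 11 fell. They were Cpt1a at 0.58 (SE 0.11, edgeR adjusted p = 0.00916), Fabp1 at 0.49 (SE 0.11, adjusted p = 0.0205) and Cyp4a14 at 0.46 (SE 0.11, adjusted p = 0.0311), which encode the carnitine transferase of mitochondrial import, the fatty acid binding protein of liver and a fatty acid hydroxylase. Scaled by library size alone none of the 3 was called, with adjusted p of 0.155 for Cpt1a, 0.274 for Fabp1 and 0.412 for Cyp4a14. Of the 19, the unadjusted p of edgeR was under 0.05 for 7 higher and 3 lower, beside 9.48% and 8.36% of all genes. DESeq2 called 6 higher and 1 lower, beside 4.36% and 3.37%. Acot2 at -0.59 (edgeR adjusted p = 0.102) and Acot1 at -0.52 (adjusted p = 0.196) were not called, and were named after their values were seen. Without 1 library, Fabp1 lost its call in 4 of 8 fits (leaving out control replicate 2 or 4, or resmetirom replicate 3 or 4, at up to 0.0821) and Cyp4a14 in 5 (leaving out control replicate 1 or 4, or resmetirom replicate 1, 2 or 4, at up to 0.111). Of 6 tested PPARgamma genes of steatosis, 3 fell and 0 rose, with a median of -0.547. These were Fabp4, Aqp7 and the lipoprotein lipase gene Lpl, which went from 205 ± 66.0 to 58.1 ± 14.2 CPM (SD, n = 4 each; log2 fold change -1.81, SE 0.26, edgeR adjusted p = 0.00474). Aqp7 was called in 1 of 8 fits with a library left out, the one without resmetirom replicate 1 (adjusted p = 0.0214), and reached up to 0.131 in the others. Pparg itself was at -0.10 (SE 0.16, edgeR adjusted p = 0.822), Cd36 at -0.04 (SE 0.10, adjusted p = 0.888) and Mogat1 at 0.60 (SE 0.25, adjusted p = 0.227). Pparg, Cd36 and Mogat1 were named after their values were seen.

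Hsd17b13 is known as a target of the lipogenic factors LXR and SREBP1. Of 17 tested genes of that list, 6 fell and 1 rose, with a median of -0.208. DESeq2 called 6 lower and 3 higher, beside 3.37% and 4.36% of all genes. The unadjusted p of edgeR was under 0.05 for 7 lower and 4 higher, beside 8.36% and 9.48% of all genes. With library sizes only and on both TPM scales 8 fell and 0 rose. Over the other 17 alternatives 5 to 6 fell and 1 to 4 rose, and the median turned to 0.06 without control replicate 2. Abcg5 and Abcg8, which encode the partners of a sterol exporter, had log2 fold changes of -1.64 (SE 0.08, edgeR adjusted p = 3.39e-07) and -1.5 (SE 0.18, adjusted p = 0.000862). The desaturase gene Scd1 was at -1.88 (SE 0.21, adjusted p = 0.000793) and Mlxipl, which encodes ChREBP, at -0.75 (SE 0.12, adjusted p = 0.00283). The other falls were Srebf1, which encodes SREBP1, at -1.53 (SE 0.34, adjusted p = 0.0478), and the cholesterol exporter gene Abca1 at -0.58 (SE 0.11, adjusted p = 0.00859), and the rise was Me1, which encodes malic enzyme, at 0.68 (SE 0.11, adjusted p = 0.00405). Nr1h3, which encodes LXRalpha, was at 0.16 (SE 0.09, adjusted p = 0.419). Also not called were Fasn at 1.14 (SE 0.27, edgeR adjusted p = 0.0513), Acacb at 0.51 (0.0887), Elovl6 at 0.44 (0.382) and Acly at 0.32 (0.24). Gpam was at 0.17 and Acaca at 0.10, while Mylip was at -0.37, Thrsp at -0.25 and Lpcat3 at -0.21, none of them called. Srebf1, Abca1, Me1 and the genes of this list that were not called were named after their values were seen.

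**Figure D5:**
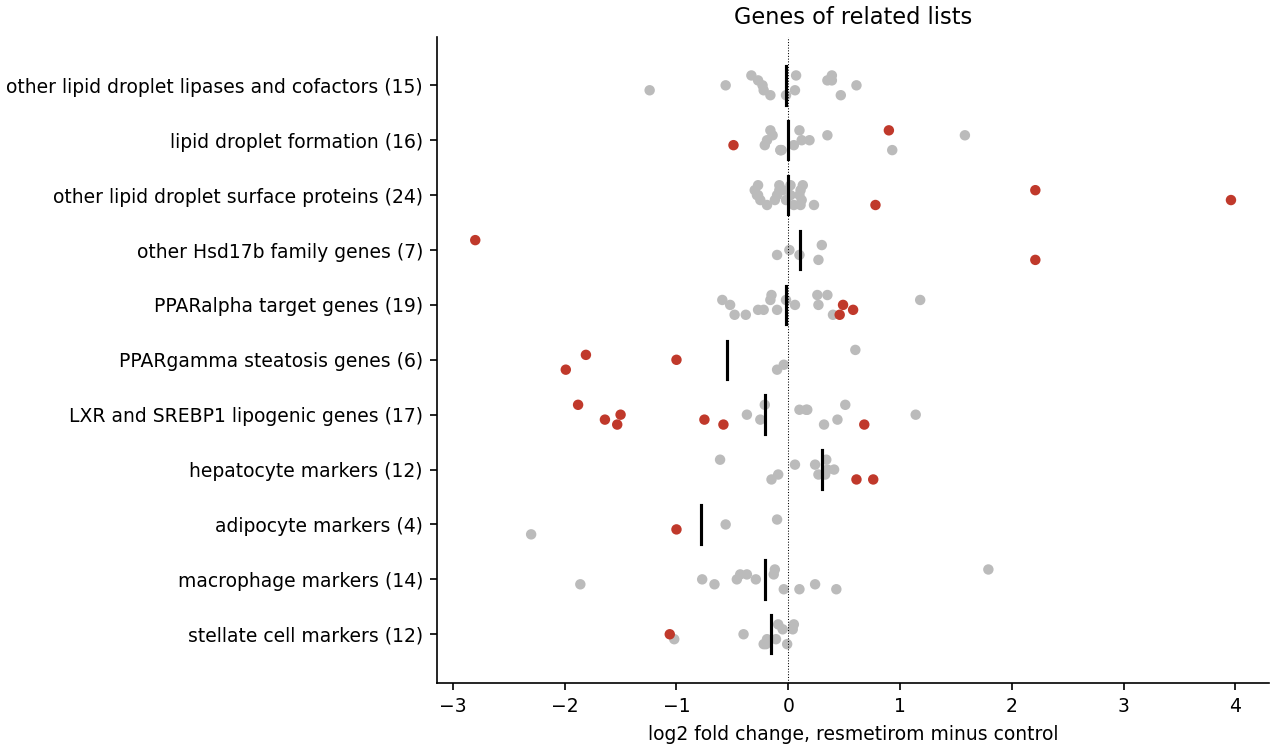
Log2 fold change, resmetirom minus control, of the tested genes of each list besides the 10 genes, with called genes in red, others in grey, the median as a black bar and the number tested in brackets. The medians of the 3 droplet lists lie at -0.021 to -0.004, and that of the PPARgamma genes at -0.547.

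Droplets also fill macrophages and stellate cells in steatohepatitis, and the genes of both were followed. Of 14 tested macrophage markers, 0 were called with edgeR (2 lower at an unadjusted p under 0.05, 1 lower with DESeq2 and 0 with limma-voom), with summed levels of 730 to 1114 CPM in the control and 453 to 1193 CPM in the resmetirom libraries, which overlap. With library sizes only 1 of the 14 was called lower, and on both TPM scales 7 were. The one with the smallest p was Gpnmb, a marker of lipid-laden macrophages, at 16.2 ± 7.89 and 4.41 ± 2.48 CPM (SD, n = 4 each; log2 fold change -1.86, SE 0.50, edgeR adjusted p = 0.0857). Leaving out control replicate 1 or resmetirom replicate 1 brought Gpnmb past the threshold, with an adjusted p of 0.0422 and of 0.0445. Of 12 stellate cell markers, all tested, 1 fell, the collagen gene Col3a1 at -1.06 (SE 0.25, edgeR adjusted p = 0.0474), and the summed levels were 471 to 695 and 472 to 763 CPM. With library sizes only and on both TPM scales 2 to 4 of the 12 were called lower. Col3a1 was called without control replicate 2 or resmetirom replicate 1 and in none of the other 6 fits with a library left out, where its adjusted p was 0.0641 to 0.144. The part of these cells in the changes of Plin4, Hsd17b11 and Hsd17b13 was not tested.

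Across the 8 libraries, the 3 genes with levels most like those of each called gene were listed from 7005 genes with a mean of at least 10 CPM, by Pearson correlation of log2 CPM. For Plin4 they were Gstp1 (r = 0.985), Amdhd2 (r = 0.975) and Chpt1 (r = 0.97). For Hsd17b11 they were Zfyve9 (r = 0.968), Cyp3a11 (r = 0.966) and Fech (r = 0.962), and for Hsd17b13 Atxn10 (r = 0.977), Tbc1d20 (r = 0.967) and Itfg1 (r = 0.952). Every one of these correlations is over 8 libraries that share the group difference and the scaling. Of the 9 genes, Gstp1, Chpt1, Cyp3a11 and Atxn10 were themselves called, at -0.67, -0.93, -1.65 and -0.44.

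Some libraries were the highest or the lowest of their group for several of these genes. Control replicate 1 was the highest of its group for 5 of the 10 genes, Plin2, Plin3, Plin4, Plin5 and Cidec. Among the resmetirom libraries, replicates 3 and 4 were each the highest for 4 of the 10. Resmetirom replicate 1, whose TMM factor is like those of the control libraries, was the lowest of its group for Plin4, Plin5, Cideb, Cidec and G0s2. Without it, Plin4 was at -1.49 (edgeR adjusted p = 0.00429), Hsd17b11 at -0.70 (adjusted p = 0.0145) and Hsd17b13 at -0.49 (adjusted p = 0.073).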

How the data were processed

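Poly(A)-selected liver RNA of 4 control and 4 resmetirom libraries was sequenced on MGI or Illumina instruments, and groups were read from the titles. The submitters' processing notes list the build mm10, the aligners HISAT2 2.1.0 and Bowtie2 2.2.8, StringTie 1.3.1, fastp 0.18.0, edgeR, DESeq2 and RSEM, without saying which made which column. The authors deposited whole-number counts for each gene and library, per the file headers. The authors also deposited TPM, the log2 ratio of its group means, and a p-value with its adjusted p-value, per the file headers. None of the sources used here names the tool behind that p-value.

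Counts were tested with edgeR 4.0.16 (filterByExpr, TMM factors, robust glmQLFit, glmQLFTest), with Benjamini-Hochberg adjustment over 12207 genes. Within-library ratios used counts plus 0.5 and a 2-sided exact permutation test over 70 arrangements. Alternatives were DESeq2 1.42.0, limma 3.58.1 on counts (voom) and on log2(TPM + 1) and log2(TPM + 0.1), other factors and filters, a replicate block, and leaving out each library. On simulated counts, edgeR recovered 20% of genes changed by 1.5-fold, 78% by 2-fold and 98% by 4-fold, and 5 of 151 calls were false. Positions are from GENCODE M21 on GRCm38 (99.2% of table IDs found). The genes, lists and ratios were chosen with earlier results of these data known. Named are the 10 genes, the 4 called genes of lowest p in a list (where none was called, the gene of lowest p), neighbours of called genes, and 3 look-alikes each, besides genes said to be named after their values were seen. Outside that rule are Nop9, which overlaps Cideb, and the list genes that were not tested, such as Plin1, Cidea, Cfd and Pnpla3. Called genes of the annotation lists also lie outside it.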

Additional observations from a re-analysis of the deposited data

Results flagged for a closer look

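The log2 ratio of Plin4 to Plin2 counts stood apart in control replicate 4, at -4.38 against -5.07 to -4.98 in the other 3 control libraries. The gap to its nearest neighbour was 0.869 of the range of the group, over Dixon's 95% critical value for 4 samples. Of 30 groups of 4 libraries tested in this way, 1 passed that value, and chance passes about 1 in 20. Without control replicate 4, the difference between the groups was -1.70 in place of -1.86 on the log2 scale.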

How the results depend on the processing

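Over 20 alternatives, Plin4 and Hsd17b11 kept their direction and their call, and Hsd17b13 lost its call in 5, the 4 left-out libraries given above and the replicate block. edgeR called 560 genes, DESeq2 943 (532 higher and 411 lower), library sizes only 2112 (151 and 1961), log2(TPM + 0.1) 4721 (128 and 4593) and log2(TPM + 1) 4762 (127 and 4635). With 1 library left out the count was 331 (without control replicate 4) to 544, with 369 without resmetirom replicate 4, of 12282 to 12403 genes tested. In these fits 2 to 3 of the 10 genes were called. On both TPM scales 5 of the 10 genes were called, all lower. Beside them, 38.0% of all genes were called lower and 1.04% higher in log2(TPM + 1). In log2(TPM + 0.1) these shares were 37.6% and 1.05%. With library sizes only, Plin2 turned to -0.12, Cideb to -0.17 and Pnpla2 to -0.25. On the log2(TPM + 1) scale Plin2 turned to -0.33, Plin5 to -0.18, Cideb to -0.36, G0s2 to -0.19, Pnpla2 to -0.43, Fabp1 to -0.01 and Cyp4a14 to -0.04. On the log2(TPM + 0.1) scale the same 7 were at -0.33, -0.18, -0.36, -0.19, -0.44, -0.01 and -0.04. These scalings also move the median of all genes, to -0.3118, -0.4075 and -0.4972, and relative to it Plin2, Plin5, Cideb and G0s2 stayed above 0 under all 3, while Pnpla2 was at 0.06, -0.03 and 0.06. Pnpla2 was at -0.04, -0.02 and -0.01 without control replicate 1, control replicate 4 and resmetirom replicate 1, and Plin2 at -0.06 without resmetirom replicate 3 (over all left-out libraries, Pnpla2 ranged from -0.04 to 0.13 and Plin2 from -0.06 to 0.43), and the cause was not tested.

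The titles number the libraries 1 to 4 in both groups, but same-numbered libraries did not deviate together (correlations of -0.338, 0.228, -0.22 and -0.102), and 1 of 4 correlated best with its own number. With the replicate block 406 of 12207 genes and 2 of the 10 genes were called. In edgeR Hsd17b13 (adjusted p = 0.084), Hsd17b6 (0.0999), Nsdhl (0.0537), Fabp1 (0.0629), Cyp4a14 (0.0927) and Aqp7 (0.0553) lost their calls. For the ratio of Plin4 to Plin2 the block gave an exact sign-flip p of 0.125, the smallest that 4 pairs allow. None of the 5 ratios changed direction under its 11 alternatives, and their side of the threshold says nothing of stability, since 1 ratio alone at the smallest p of 0.0286 has an adjusted p of 0.143. The lowest count of the 10 genes in a library was 96, and 20% of simulated 1.5-fold changes were recovered over 12069 genes.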
